A study of Mus musculus with 6 samples.

Results

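The genes described here encode 6 inhibitory receptors of lymphocytes, namely Lag3, Havcr2, Tigit, Ctla4, Cd160 and Btla. They were taken by their symbols from the 32285 genes of the count tables, and each symbol matched 1 gene. Their unique molecular identifiers (UMIs, each standing for 1 captured transcript) were summed per library over cells gated by marker genes as CD8 T, CD4 T, regulatory T (Treg), NK, B and dendritic cells (DC). These 6 classes held 15691 of the 51633 cells that passed the filters. Single-cell RNA-seq had been run on 6 libraries, each from 1 mouse and each from a different treatment.

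Per the study's methods, all mice were female C57BL/6 animals, 6 to 8 weeks old when KPCA cells, a mouse ovarian cancer line proficient in homologous recombination, were injected into the ovarian bursa. The control mouse received solvent and control rat IgG. The 2DG mouse received 2-deoxyglucose, an inhibitor of glycolysis and of N-glycan synthesis, into the peritoneum from day 9. The 2FF mouse carried tumor cells that had been exposed to 2-fluorofucose, an inhibitor of fucosylation, before injection, and then received 2FF by gavage. The sample labels name this drug 2F-Peracetyl-Fucose, whereas the study's text names 2-fluoro-L-fucose. The anti-PD-L1 mouse received an antibody to PD-L1, and the 2 remaining mice received 2DG plus anti-PD-L1 (the 2DG combination) or 2FF plus anti-PD-L1 (the 2FF combination). Mice were killed on day 30. The tissue label reads lymph node, and the design text speaks of young and aged mice, whereas the methods describe tumors from mice of 1 age range. The keratin-positive tumor gate held 1 to 12 cells per library and the macrophage gate 615 to 1075. The control and anti-PD-L1 libraries served the comparisons of both drugs. With 1 library per treatment there was no replicate of any treatment, so differences between treatments carry counting intervals and no test.

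Inhibitory receptors dampen the response of an activated lymphocyte when they meet their ligands on other cells. LAG-3 binds MHC class II, TIM-3 (encoded by Havcr2) binds galectin-9 and other ligands, TIGIT binds the nectin-like protein encoded by Pvr, and CTLA-4 competes with CD28 for CD80 and CD86. CD160 and BTLA share HVEM, the product of Tnfrsf14, as a ligand. Several of these receptors accumulate together on T cells exposed to antigen for a long time, as in tumors, and CTLA-4 is carried constitutively by regulatory T cells.

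On GRCm38, the members lie at chr6:124904361-124911705 (Lag3, minus strand), chr11:46454935-46481255 (Havcr2, plus strand), chr16:43648867-43664146 (Tigit, minus strand), chr1:60887000-60915832 (Ctla4, plus strand), chr3:96798763-96829351 (Cd160, minus strand) and chr16:45224315-45257670 (Btla, plus strand). All 6 are annotated as protein-coding. Cd160 overlaps a gene on the other strand, and Ctla4 overlaps a processed pseudogene on its own strand that the count tables do not list.

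The RefSeq table of GRCm38.p6 held promoter windows of 300 bases for 5 of the 6 genes. Cd160 had windows at both chr3:96829302-96829601 and chr3:96814472-96814771. The second of these and the Ctla4 window lay wholly inside the gene spans given above, which are from GENCODE and not from RefSeq. The windows of Btla, Havcr2 and Ctla4 are shown because these 3 genes had unlike class patterns: Btla was highest in B cells, Havcr2 was shared by T and dendritic cells, and Ctla4 was highest in Treg cells. Capitals mark matches, on either strand, to the letters TGTGGT (the RUNX motif), GGAAA (the core of the NFAT motif) and TGANTCA (the AP-1 motif loosened to any base at N). Each is written 5′ to 3′ on the gene's own strand.
Btla, chr16:45224087-45224386, plus strand: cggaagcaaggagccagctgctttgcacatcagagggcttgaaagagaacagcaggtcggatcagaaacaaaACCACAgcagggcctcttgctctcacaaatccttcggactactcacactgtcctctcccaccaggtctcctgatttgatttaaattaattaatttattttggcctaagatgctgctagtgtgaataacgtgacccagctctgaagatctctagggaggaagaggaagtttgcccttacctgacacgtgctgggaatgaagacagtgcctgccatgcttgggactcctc
Havcr2, chr11:46454681-46454980, plus strand: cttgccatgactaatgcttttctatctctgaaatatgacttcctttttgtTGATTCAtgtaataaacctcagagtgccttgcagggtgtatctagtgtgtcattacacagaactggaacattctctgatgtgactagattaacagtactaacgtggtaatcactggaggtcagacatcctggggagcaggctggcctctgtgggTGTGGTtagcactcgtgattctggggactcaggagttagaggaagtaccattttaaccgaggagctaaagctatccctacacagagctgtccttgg
Ctla4, chr1:60908775-60909074, plus strand: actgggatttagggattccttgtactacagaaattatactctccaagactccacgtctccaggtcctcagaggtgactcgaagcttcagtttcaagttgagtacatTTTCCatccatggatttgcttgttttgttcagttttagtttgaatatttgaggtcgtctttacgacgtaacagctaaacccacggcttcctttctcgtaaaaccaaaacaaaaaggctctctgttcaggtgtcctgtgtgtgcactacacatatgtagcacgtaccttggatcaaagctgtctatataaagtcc
A gene was counted if any of its windows held the letters, whereas the shares are per window. The letters TGTGGT stood in the windows of 4 of the 5 genes, all but Ctla4, and in 16.8% of 32851 promoter windows. The letters TGANTCA stood in 1 of the 5, Havcr2, as TGATTCA, and in 7.81% of all windows. GGAAA stood in 3 of the 5, in Cd160 by the chr3:96814472-96814771 window only, and in 61.3% of all windows. These are matches of letters only, and binding of a factor was not measured.

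The gated classes had 121 to 1967 CD8 T cells per library, 131 to 611 CD4 T cells, 78 to 375 Treg cells, 19 to 379 NK cells, 61 to 390 B cells and 235 to 391 dendritic cells, and the smallest group was the 19 NK cells of the control library. The summed depth ran from 133332 UMIs in those NK cells to 13381729 UMIs in the CD8 T cells of the 2FF library. Levels are given as CPM, the count scaled to a class total of 1000000 UMIs. Marker lists not used in the gates were highest in their own class in 6 of 6 libraries for Treg, NK, B and dendritic cells. The CD8 T list, which holds cytotoxic genes, was higher in CD8 T than in CD4 T cells in 6 of 6 libraries and higher still in NK cells in 5 of 6. The CD4 T list was higher in CD4 T than in CD8 T cells in 6 of 6 libraries and higher than in Treg cells in 2 of 6. The summed level of 3 neutrophil markers was 646 CPM in the CD8 T cells and 990 CPM in the Treg cells of the control library, against 3.83 to 171 CPM and 5.55 to 42.4 CPM in the other libraries. The control library was also highest in CD4 T (236 CPM against 9.16 to 33.9), B (284 against 3.04 to 11.6), dendritic (110 against 5.09 to 22.2) and NK cells (37.5 against 2.48 to 18.6). It held 2188 neutrophil-gated cells, and the others 100 to 167. The part of these markers in the ratios to control below was not tested in any class. Any 2 libraries shared 0.186% to 0.345% of the barcodes of the smaller one.

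Each member had its own order of classes. Ctla4 was highest in Treg cells, Cd160 in CD8 T cells and Btla in B cells, whereas Lag3 was level between CD8 and CD4 T cells, Havcr2 was about as high in dendritic cells as in CD4 T cells, and Tigit was spread over T and NK cells. Differences between classes were tested across the 6 mice with edgeR's quasi-likelihood test on 36 sums, with the library as a block and Benjamini-Hochberg adjustment over 11507 genes; all 6 members passed the filter on low counts.

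**Figure D1:**
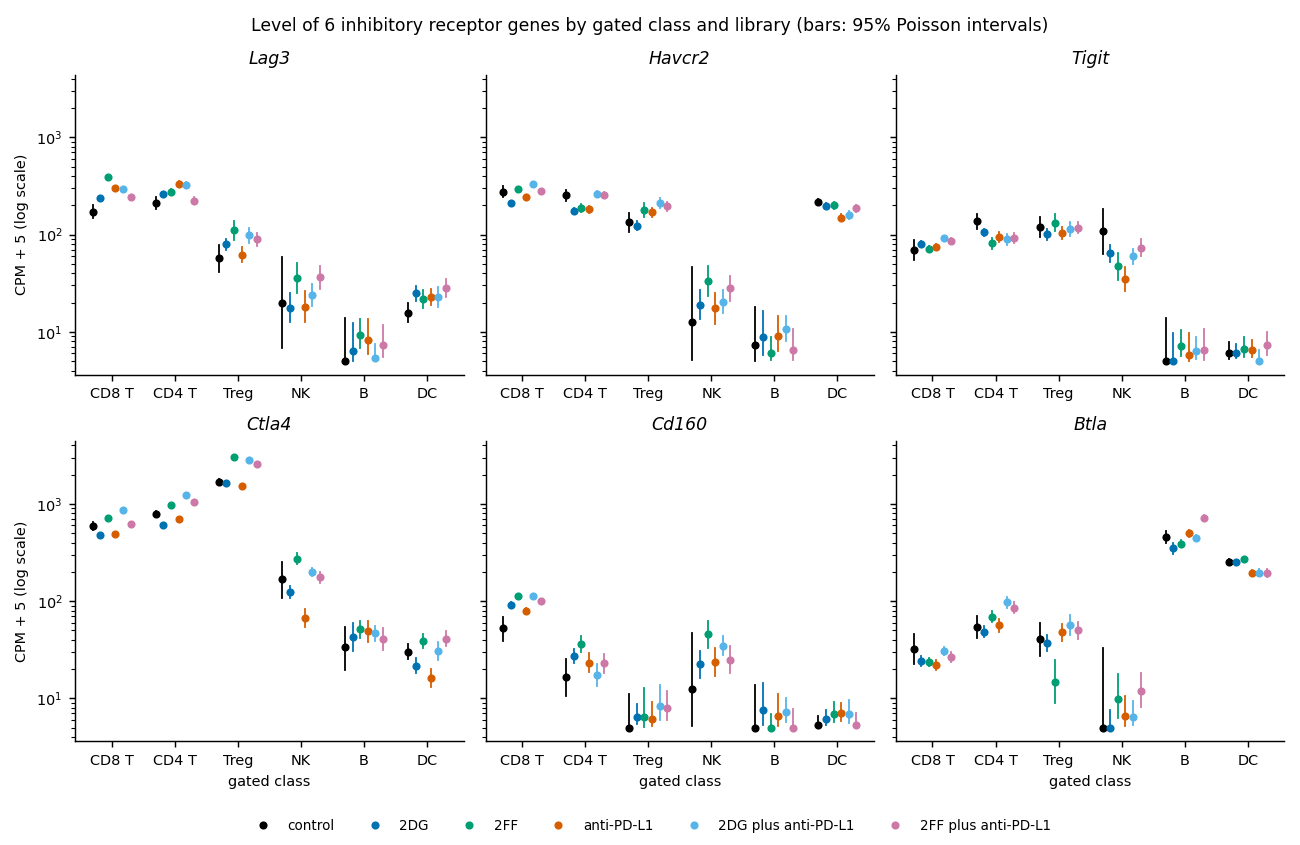
Level of each member (CPM + 5, log scale) in the 6 gated classes; 1 point per library with its 95% Poisson interval. The Ctla4 points of Treg cells lie between 1512 and 3069 CPM, above those of every other class, and the Btla points of B cells lie between 344 and 713 CPM.

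Between CD8 and CD4 T cells, 4 of the 6 members passed the test, beside 23.1% of all genes. Between Treg and CD4 T cells it was 5 of 6 beside 25.9%, and between Treg and CD8 T cells 6 of 6 beside 40.7%. Against NK cells, 6 of 6 members passed in CD8 T cells beside 45.2% of all genes, 5 of 6 in CD4 T cells beside 41.9%, and 6 of 6 in Treg cells beside 45.0%. Against B cells, 6 of 6 passed in CD8 T cells beside 59.3%, 6 of 6 in CD4 T cells beside 57.2%, 5 of 6 in Treg cells beside 57.4%, and 6 of 6 in NK cells beside 50.6%. Dendritic cells differed in 6 of 6 members from CD8 T cells beside 73.2% of all genes, in 5 of 6 from CD4 T cells beside 71.0%, in 5 of 6 from Treg cells beside 67.9%, in 5 of 6 from NK cells beside 66.6%, and in 4 of 6 from B cells beside 67.8%. Against dendritic cells most of the genes tested passed, so the count of members there is close to the share over all genes.

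Ctla4, which restrains costimulation through CD28, ran from 1512 CPM through a median of 2138 to 3069 CPM in Treg cells. In CD4 T cells it ran from 600 through 875 to 1225 CPM, and in CD8 T cells from 471 through 604 to 864 CPM. The Treg range lay above both others, and the ranges of the CD4 and CD8 T cells overlapped although Ctla4 was lower in CD8 T cells in 6 of 6 libraries. The log2 fold of Treg over CD4 T cells was 1.32 ± 0.13 (SE, n = 6, edgeR adjusted p = 7.4e-10). The log2 fold of CD8 over CD4 T cells was -0.46 ± 0.13 (SE, edgeR adjusted p = 0.00742), a call that was lost in a fit with no library term (adjusted p = 0.207). NK cells had 62.7 to 268 CPM (median 168), B cells 28.4 to 46.1 CPM (median 39.8) and dendritic cells 11.2 to 36.3 CPM (median 25.5). As a measure of free RNA, Ctla4 in neutrophil-gated cells had a median of 6.55 CPM, and NK, B and dendritic cells were each above the neutrophils in 6 of 6 libraries.

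Lag3, a receptor for MHC class II, ran from 167 through a median of 262 to 389 CPM in CD8 T cells and from 207 through 262 to 329 CPM in CD4 T cells. The ranges overlapped and CD8 T cells were higher in 2 of 6 libraries, with a log2 fold of 0.025 ± 0.13 (SE, edgeR adjusted p = 0.934). Treg cells had 52.4 to 105 CPM with a median of 79.8 CPM, below CD4 T cells in 6 of 6 libraries with no overlap, and the log2 fold of Treg over CD4 T cells was -1.78 ± 0.15 (SE, edgeR adjusted p = 1.3e-11). Dendritic cells (median 17.8 CPM) and NK cells (median 17.0 CPM) were not separated by the test (log2 fold -0.085 ± 0.22, SE, edgeR adjusted p = 0.748). B cells had 0 to 4.29 CPM, near the neutrophil median of 1.34 CPM.

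Havcr2, which encodes TIM-3, a receptor of both T cells and myeloid cells, ran from 205 through a median of 273 to 324 CPM in CD8 T cells, from 170 through 216 to 257 CPM in CD4 T cells, and from 118 through 170 to 207 CPM in Treg cells. Dendritic cells held 145 to 212 CPM with a median of 186 CPM. These 4 ranges overlapped. CD8 T cells were above CD4 T cells in 6 of 6 libraries, with a log2 fold of 0.37 ± 0.12 (SE, edgeR adjusted p = 0.0199), and this call was lost without the 2FF library (adjusted p = 0.0752), without the anti-PD-L1 library (0.083), in DESeq2 (0.059) and with no library term (0.121). Dendritic and CD4 T cells were not separated by the test (log2 fold -0.048 ± 0.12, SE, edgeR adjusted p = 0.733). Treg cells were below CD4 T cells by a log2 fold of -0.36 ± 0.12 (SE, edgeR adjusted p = 0.0307), a call lost without the control library (adjusted p = 0.106), without the 2DG library (0.103) or without the 2FF plus anti-PD-L1 library (0.0838), and also with strict gates (0.0547), without the deepest cells (0.0857) and with no library term (0.107). Treg cells were also below dendritic cells (log2 fold 0.31 ± 0.12 for dendritic over Treg cells, SE, edgeR adjusted p = 0.0276), a call lost without the control library (0.0711) or the 2DG library (0.185), with strict gates (0.0931), without the deepest cells (0.192) and with no library term (0.105), and dendritic cells were higher in 3 of 6 libraries. NK cells had a median of 14.7 CPM and B cells of 3.14 CPM. Neutrophil-gated cells had a median of 53.6 CPM, above NK and B cells in 6 of 6 libraries, so they could not serve as a measure of free RNA for Havcr2. Macrophage-gated cells held 67.1 to 119 CPM, below dendritic cells in 6 of 6 libraries.

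Tigit, which competes with the activating receptor CD226 for shared ligands, was present in all T cell classes and in NK cells. Treg cells had 95.4 to 128 CPM (median 111), CD4 T cells 77.0 to 132 CPM (median 88.2), CD8 T cells 65.0 to 86.6 CPM (median 72.6) and NK cells 30.2 to 105 CPM (median 57.2). Neither Treg against CD4 T cells (log2 fold 0.23 ± 0.13, SE, edgeR adjusted p = 0.21) nor CD8 against CD4 T cells (-0.27 ± 0.12, SE, adjusted p = 0.117) passed the test, whereas Treg cells were above CD8 T cells by a log2 fold of 0.50 ± 0.13 (SE, edgeR adjusted p = 0.00183). CD8 T cells were above NK cells by 0.40 ± 0.14 (SE, edgeR adjusted p = 0.0246), a call lost without the 2FF library (adjusted p = 0.0554), the anti-PD-L1 library (0.132) or the 2DG plus anti-PD-L1 library (0.0758), in DESeq2 (0.101) and with no library term (0.0697). In B and dendritic cells the median levels were 1.07 and 1.31 CPM, next to 1.16 CPM in neutrophils.

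Cd160, a receptor of cytotoxic lymphocytes anchored in the membrane by a lipid, ran from 47.4 through a median of 90.6 to 108 CPM in CD8 T cells, with the control library lowest. CD4 T cells had 11.4 to 31.2 CPM, so the ranges did not overlap, and the log2 fold of CD8 over CD4 T cells was 2.23 ± 0.15 (SE, edgeR adjusted p = 2.3e-13), higher in 6 of 6 libraries. NK cells had 7.5 to 41.0 CPM (median 19.3) and were not separated from CD4 T cells by the test (log2 fold of CD4 T over NK cells -0.38 ± 0.20, SE, edgeR adjusted p = 0.14). Treg cells held 0 to 3.42 CPM, with 0 UMIs in the 610401 UMIs of the control library, whose exact Poisson interval reached 6.04 CPM. Treg, B and dendritic cells were not separated from each other for Cd160 by the test (edgeR adjusted p = 0.462 for Treg against B cells, 0.586 for dendritic against Treg cells and 0.722 for dendritic against B cells).

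Btla, which encodes the HVEM receptor of B and T cells, ran from 344 through a median of 450 to 713 CPM in B cells, with the 2FF plus anti-PD-L1 library highest. Dendritic cells had 189 to 263 CPM (median 218), below B cells in 6 of 6 libraries (log2 fold -1.10 ± 0.17, SE, edgeR adjusted p = 5.5e-07). Among T cells the order was CD4 T (43.7 to 91.9 CPM, median 58.1), Treg (9.71 to 52.1 CPM, median 39.3) and CD8 T cells (17.0 to 27.5 CPM, median 20.6). Btla was lower in CD8 than in CD4 T cells by a log2 fold of -1.56 ± 0.19 (SE, edgeR adjusted p = 7.8e-08) and lower in Treg than in CD4 T cells by -0.73 ± 0.21 (SE, adjusted p = 0.00932). NK cells had 0 to 6.91 CPM, close to the 3.84 CPM median of neutrophils.

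A Treg cell in which no Foxp3 UMI was captured falls into the CD4 T gate, and the Treg marker list was present there. CD4 T cells were therefore also split by UMIs of Il2ra or Ikzf2, which many Treg cells express. The part with either was the larger in each library, such as 106 against 25 cells in control and 459 against 152 in 2DG. Whether the cells of that part were Treg cells was not tested. CD4 T cells with neither had a median of 762 CPM of Ctla4, against 924 CPM in those with either, and both medians lay below the lowest Treg level of 1512 CPM. The median of Havcr2 was 140 CPM without and 228 CPM with those UMIs, beside 216 CPM over all CD4 T cells, that of Lag3 258 and 264 CPM, and that of Btla 74.1 and 58.5 CPM.

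Among dendritic cells, Btla and Havcr2 were highest in the type 1 subset, which carries Xcr1 or Clec9a and is known for cross-presentation to CD8 T cells. Btla ran from 429 through a median of 502 to 567 CPM in type 1 cells (324 cells in all), against 32.5 to 86.0 CPM in type 2 cells with Cd209a (517 cells), 119 to 242 CPM in mature cells with Ccr7, Ccl22 or Fscn1 (701 cells) and 37.3 to 120 CPM in plasmacytoid cells with Siglech (87 cells). The type 1 range lay above the 3 others. Havcr2 was also highest by median in type 1 cells, with 251 to 407 CPM (median 306), next to medians of 166 CPM in type 2 and 101 CPM in mature cells. The 205 dendritic cells outside these subsets had 168 to 306 CPM of Havcr2 (median 246), a range that overlapped that of type 1 cells. Their Btla ran from 91.4 to 197 CPM, below type 1 cells. Plasmacytoid cells were the opposite case. They held 2 Havcr2 UMIs in all, whereas Lag3 ran there from 24.0 through a median of 180 to 277 CPM, above type 1 cells (median 13.3 CPM) in 6 of 6 libraries. In the control library this rested on 1 Lag3 UMI in 3 cells (95% interval 0.607 to 134 CPM). In the other 5 libraries Lag3 was found in 18 of 23 (2DG), 4 of 7 (2FF), 16 of 21 (anti-PD-L1), 13 of 21 (2DG plus anti-PD-L1) and 11 of 12 (2FF plus anti-PD-L1) plasmacytoid cells. Ctla4 was higher in type 1 than in type 2 cells in 6 of 6 libraries, with medians of 43.1 and 8.18 CPM. These subsets were not tested against each other.

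**Figure D2:**
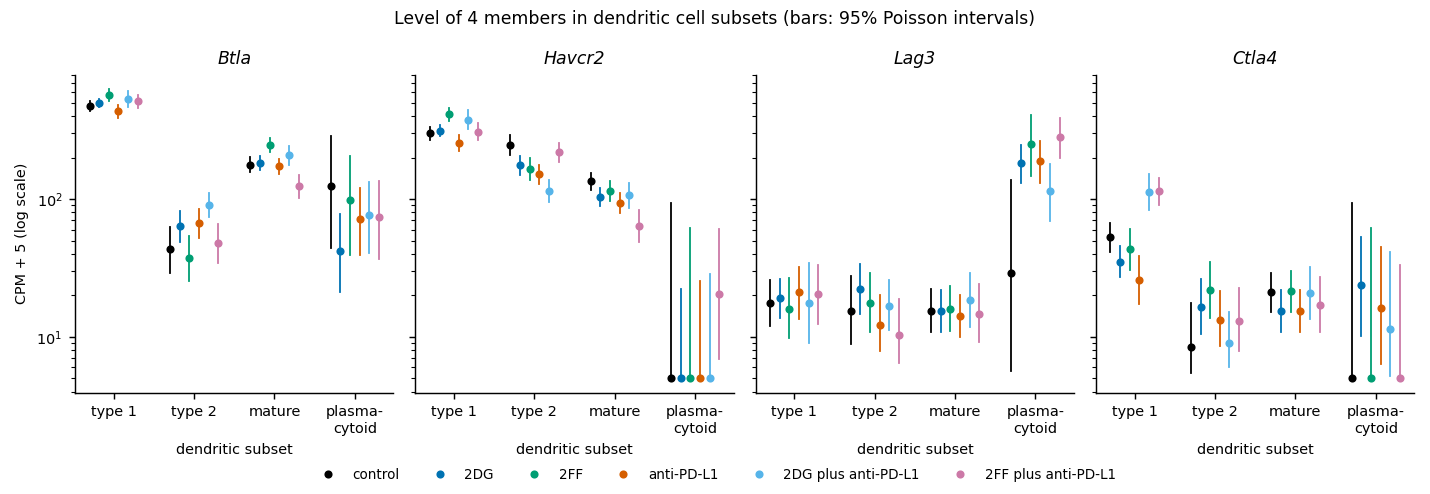
Level of Btla, Havcr2, Lag3 and Ctla4 (CPM + 5, log scale) in 4 dendritic subsets; 1 point per library with its 95% Poisson interval. Btla in type 1 cells (429 to 567 CPM) lies above the other subsets, and Lag3 in plasmacytoid cells (24.0 to 277 CPM) above the others, with a wide interval in the control library, which had 3 such cells.

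Within CD8 T cells, Btla went against the other members. TCF-1, the product of Tcf7, marks the less differentiated, stem-like part of tumor CD8 T cells, and 944 CD8 T cells had a Tcf7 UMI against 6821 that had none. Btla in cells with a Tcf7 UMI was 69.1 CPM in the control library, 55.5 in 2DG, 59.9 in 2FF, 31.6 in anti-PD-L1, 79.4 in 2DG plus anti-PD-L1 and 65.4 in 2FF plus anti-PD-L1, and 12.5 to 19.7 CPM in cells without one. It was higher with Tcf7 in 6 of 6 libraries and the ranges did not overlap. Lag3 was lower with Tcf7 in 6 of 6 libraries, with 34.5 to 74.8 CPM against 199 to 426 CPM. Havcr2 was lower too, with 0 to 57.4 CPM against 237 to 356 CPM. Ctla4 (medians 349 and 663 CPM), Tigit (54.5 and 76.2 CPM) and Cd160 (77.5 and 92.6 CPM) were lower with Tcf7 in 6 of 6 libraries by smaller margins, and the ranges of Ctla4 and Cd160 overlapped. The control library held 20 CD8 T cells with a Tcf7 UMI.

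**Figure D3:**
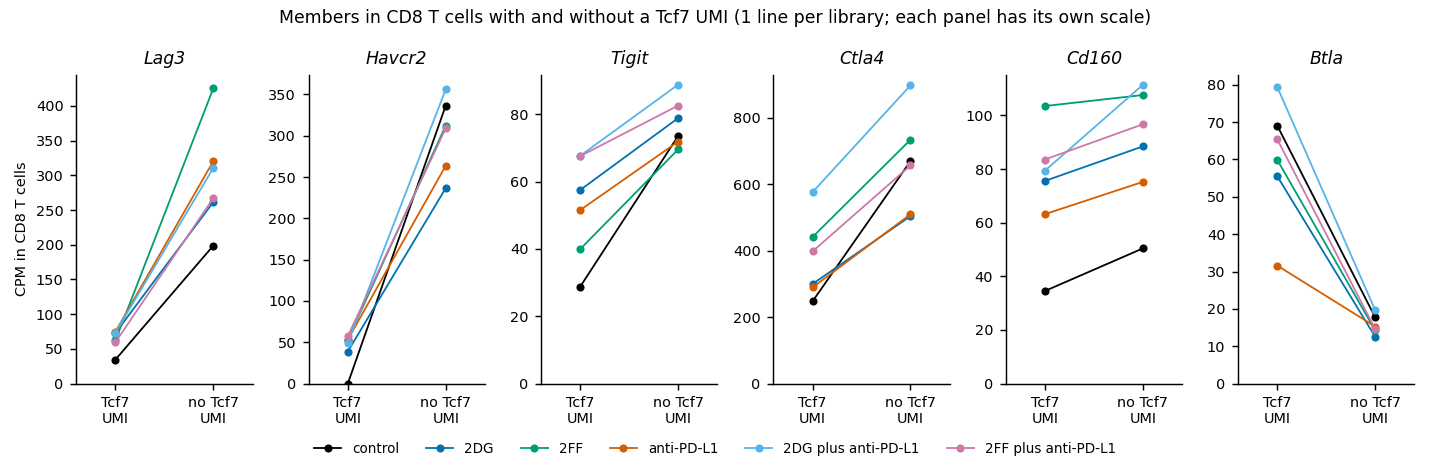
Level of each member (CPM, linear axes that start at 0 and differ between panels) in CD8 T cells with and without a Tcf7 UMI; 1 line per library. Btla lies between 31.6 and 79.4 CPM with Tcf7 and between 12.5 and 19.7 CPM without it, and Lag3 is higher without Tcf7 in 6 of 6 libraries.

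As CPM, Lag3 was lower in the 1763 CD8 T cells with a UMI of the proliferation gene Mki67 than in the others in 6 of 6 libraries (medians 199 and 295 CPM). Tigit (56.6 and 80.2 CPM) and Ctla4 (485 and 662 CPM) were also lower in 6 of 6 libraries, and Havcr2 (238 and 293 CPM) in 5 of 6. Cd160 was higher in 3 of 6 libraries and Btla in 4 of 6. The ranges over libraries overlapped for all 6 members. CPM is a share of all UMIs, and cells were not set to an equal depth here. Over all libraries, the 1763 cells with Mki67 held 3927 Lag3, 1010 Tigit, 8814 Ctla4 and 4452 Havcr2 UMIs. The 6002 other cells held 12496, 3206, 26949 and 10632, fewer per cell for each.

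To ask which members occurred in the same cell, CD8 T cells were thinned to 2000 UMIs each, since deeper cells show more genes. Before thinning the median share of CD8 T cells with a UMI was 60.7% for Lag3, 54.9% for Havcr2, 80.5% for Ctla4, 33.2% for Tigit, 37.8% for Cd160 and 9.64% for Btla. After thinning these shares were 33.9%, 31.8%, 55.8%, 13.4%, 14.9% and 3.44%. In neutrophils thinned likewise the medians were 0.26% for Lag3, 6.11% for Havcr2, 2.06% for Ctla4, 0.116% for Tigit, 0.201% for Cd160 and 0.495% for Btla, with median depths of 2881 to 4469 UMIs before thinning against 5879 to 7964 UMIs in CD8 T cells.

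Lag3 was found more often in CD8 T cells with a Havcr2 UMI than in those without, in 6 of 6 libraries. The shares were 36.1% against 19.2% (control), 43.4% against 24.6% (2DG), 54.7% against 35.3% (2FF), 45.5% against 32.1% (anti-PD-L1), 49.7% against 30.2% (2DG plus anti-PD-L1) and 42.4% against 26.9% (2FF plus anti-PD-L1). The exact intervals of each pair were apart in all libraries but the control, where 36 of 109 cells had a Havcr2 UMI. Ctla4 was also more frequent with Havcr2 in 6 of 6 libraries, at 58.3% to 78.0% against 47.2% to 65.0%, with the intervals apart in 5 of 6. The share with Btla was 0% to 2.24% with Havcr2 and 2.65% to 6.85% without, lower with Havcr2 in 6 of 6 libraries, but the 2 intervals overlapped in 5 of 6 and were apart in the 2DG combination only. For Tigit and for Cd160 they overlapped in each library. Between 41.9% (2DG) and 59.0% (2DG plus anti-PD-L1) of the thinned CD8 T cells had UMIs of 2 or more members, and none had all 6.

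**Figure D4:**
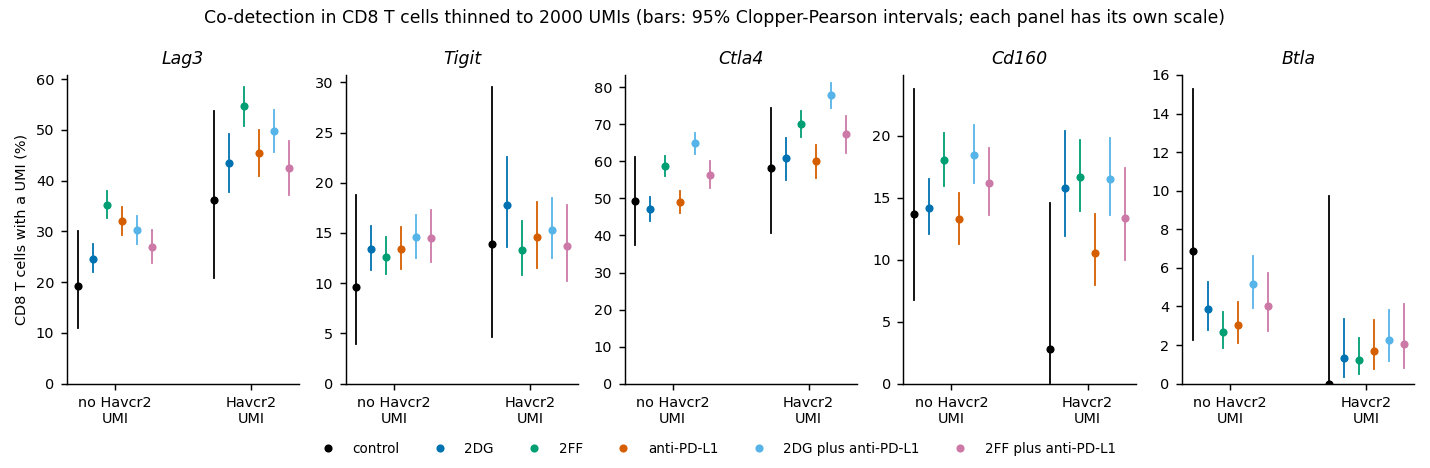
Percent of CD8 T cells, thinned to 2000 UMIs, with a UMI of each of 5 members, split by whether a Havcr2 UMI was present; 1 point per library with its 95% Clopper-Pearson interval, axes start at 0 and differ between panels. Lag3 is found in 36.1% to 54.7% of cells with Havcr2 and 19.2% to 35.3% of cells without.

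Between treatments, the level of each member in CD8 T cells was compared as a log2 ratio of 2 libraries. Ratios of members are of plain CPM, and a gene was counted as past 1.5-fold on the log2(CPM + 5) scale, which shrinks low levels. The share of genes past 1.5-fold in CD8 T cells was 12.3% for 2DG over control, 15.4% for 2FF over control and 14.8% for anti-PD-L1 over control, and 1, 2 and 2 members were past it, all higher. Relative to the antibody alone it was 4.12% of genes and 1 member for the 2DG combination, and 2.70% and 0 members for the 2FF combination. Relative to the drug alone it was 4.63% and 2 members for the 2DG combination, both higher, and 1.93% and 1 member, lower, for the 2FF combination. The 3 comparisons with control share 1 library with 121 CD8 T cells. The intervals below cover counting error only, so spread between mice is outside them. They also treat UMIs of the same cell as independent, so spread between cells is outside them too.

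Ctla4 in CD8 T cells was 588 CPM in the control library, 471 in 2DG, 704 in 2FF, 486 in anti-PD-L1, 864 in 2DG plus anti-PD-L1 and 620 in 2FF plus anti-PD-L1. The 2DG combination was highest, and the libraries of 2DG alone and of the antibody alone were the 2 lowest. Its log2 ratio was 0.83 (95% interval 0.78 to 0.88) to the antibody alone and 0.87 (0.82 to 0.93) to 2DG alone. For the 2FF combination the log2 ratio was 0.35 (0.30 to 0.41) to the antibody alone and -0.18 (-0.23 to -0.14) to 2FF alone.

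Ctla4 was higher in the 2DG combination than with the antibody alone in several classes. The log2 ratio was 0.83 (0.74 to 0.91) in CD4 T cells, 0.89 (0.82 to 0.97) in Treg cells, 1.63 (1.28 to 1.99) in NK cells and 1.20 (0.63 to 1.78) in dendritic cells. For the 2FF combination against the same antibody library it was 0.61 (0.52 to 0.69) in CD4 T cells, 0.78 (0.71 to 0.85) in Treg cells, 1.44 (1.07 to 1.83) in NK cells and 1.69 (1.17 to 2.24) in dendritic cells. The share of all genes past 1.5-fold in these 4 classes was 8.92% to 12.6% for the 2DG combination and 5.39% to 8.16% for the 2FF combination. Both sets rest on the anti-PD-L1 library, which had the lowest Ctla4 of the 6 in Treg, NK and dendritic cells. In dendritic cells the share with a Ctla4 UMI was 8.95% (exact interval 6.31% to 12.2%) with anti-PD-L1, or 35 of 391 cells. It was 10.2% (6.97% to 14.4%, 29 of 283) in the 2DG combination. In the 2FF combination it was 14.0% (9.87% to 19.15%, 33 of 235), and these intervals overlapped. In NK cells the shares were 12.3% (8.63% to 16.9%), 23.5% (19.3% to 28.1%) and 27.8% (21.7% to 34.6%) in that order. There the anti-PD-L1 interval lay below the others. In B cells Ctla4 was 44.1 CPM in anti-PD-L1, 41.7 in 2DG plus anti-PD-L1 and 36.3 in 2FF plus anti-PD-L1, and in macrophages 4.51, 6.40 and 4.61 CPM.

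Lag3 in CD8 T cells was 167 CPM in the control library, 231 in 2DG, 389 in 2FF, 294 in anti-PD-L1, 286 in 2DG plus anti-PD-L1 and 238 in 2FF plus anti-PD-L1. The control was lowest and 2FF highest. The log2 ratio to control was 0.47 (0.23 to 0.71) for 2DG, 1.22 (0.98 to 1.46) for 2FF and 0.81 (0.58 to 1.06) for anti-PD-L1. The combination with 2FF was lower than 2FF alone, with a log2 ratio of -0.71 (-0.78 to -0.64), while the 2DG combination gave, against the antibody alone, -0.04 (-0.11 to 0.031).

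Cd160 in CD8 T cells was 47.4 CPM in the control library, 86.4 in 2DG, 107 in 2FF, 73.9 in anti-PD-L1, 108 in 2DG plus anti-PD-L1 and 94.8 in 2FF plus anti-PD-L1. The control was lowest here too, on 43 UMIs, and the log2 ratio to control was 0.87 (0.42 to 1.34) for 2DG, 1.18 (0.74 to 1.65) for 2FF and 0.64 (0.20 to 1.12) for anti-PD-L1. Havcr2 was 272, 205, 286, 241, 324 and 274 CPM in the same order of libraries. It was lowest with 2DG and highest with 2DG plus anti-PD-L1, a log2 ratio of 0.66 (0.58 to 0.74) between them. Tigit stayed between 65.0 and 86.6 CPM and Btla between 17.0 and 27.5 CPM, and neither was past 1.5-fold in any of the 7 comparisons in CD8 T cells on the log2(CPM + 5) scale. On plain CPM, Btla was past it in 2 of them, with a log2 ratio of -0.69 (-1.30 to -0.03) for the antibody over control, where the control had 25 UMIs, and 0.60 (0.34 to 0.87) for the 2DG combination against the antibody alone.

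**Figure D5:**
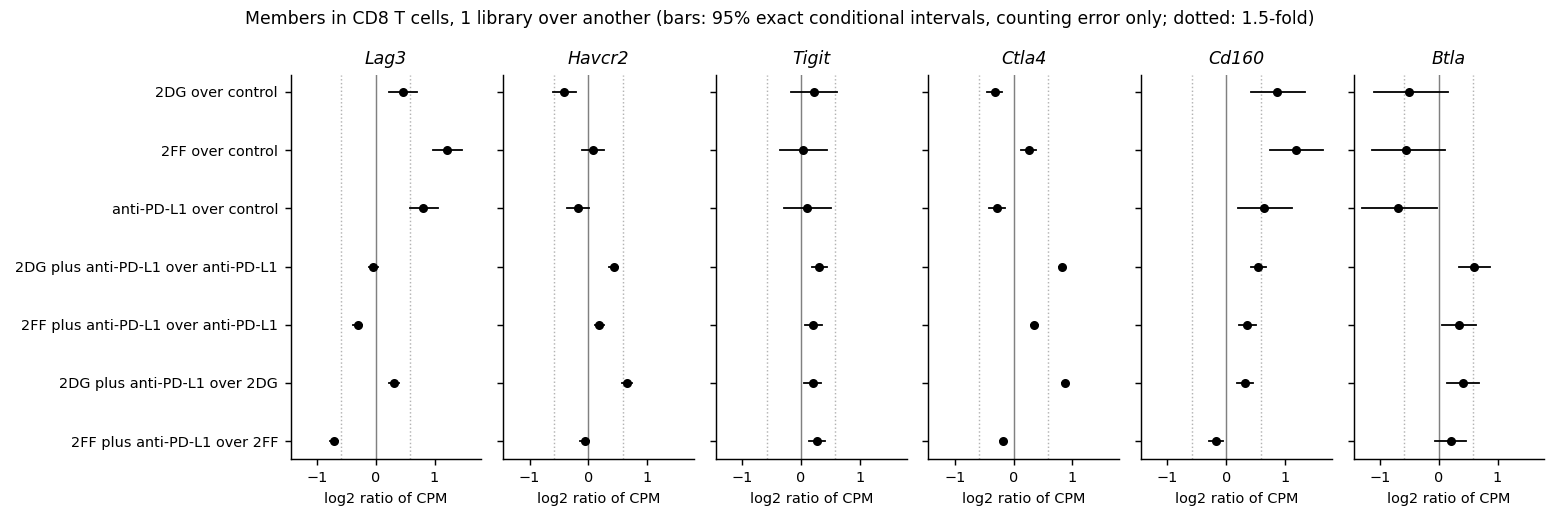
Log2 ratio of CPM of each member in CD8 T cells for 7 pairs of libraries, with 95% exact conditional intervals that cover counting error only; dotted lines stand at 1.5-fold. Ctla4 lies past the line for the 2DG combination against the antibody (0.83) and against 2DG (0.87), and Havcr2 for the latter pair (0.66). Lag3 does for 2FF (1.22) and the antibody (0.81) against control and, lower, for the 2FF combination against 2FF (-0.71). Cd160 does for 2DG (0.87), 2FF (1.18) and the antibody (0.64) against control. Btla does for the antibody against control (-0.69) and for the 2DG combination against the antibody (0.60).

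In the other classes, Btla in CD4 T cells was 91.9 CPM with 2DG plus anti-PD-L1 and 80.6 CPM with 2FF plus anti-PD-L1, against 51.8 CPM with anti-PD-L1, log2 ratios of 0.83 (0.52 to 1.14) and 0.64 (0.32 to 0.96), beside 8.92% and 5.39% of genes past 1.5-fold. In B cells Btla was 713 CPM with 2FF plus anti-PD-L1 and 387 CPM with 2FF, a log2 ratio of 0.88 (0.74 to 1.03), beside 20.5% of genes. Between the same libraries Btla in Treg cells was 45.4 and 9.71 CPM, on 77 and 7 UMIs. That log2 ratio was 2.22 (1.11 to 3.59), beside 9.03% of genes. The 2FF library was the low one here, as Btla in Treg cells of the other libraries ran from 32.3 to 52.1 CPM. Against the antibody alone, the log2 ratio of the 2FF combination was 0.09 (-0.39 to 0.57). In Treg cells Ctla4 was 3069 CPM with 2FF and 1683 CPM in control, a log2 ratio of 0.87 (0.76 to 0.98), beside 20.7% of genes. The higher values given here are a selection. Over 42 comparisons in the 6 classes, some members were past 1.5-fold with an interval off 0. Higher and lower counts were 7 and 1 for Lag3, 2 and 0 for Havcr2, and 3 and 2 for Tigit. They were 15 and 3 for Ctla4, 6 and 3 for Cd160, and 6 and 0 for Btla. Members with too few UMIs in a pair of libraries were not counted. This left out Cd160 in Treg, B and dendritic cells and Btla in NK cells in every comparison. It also left out Btla in Treg cells for 2FF over control, a log2 ratio of -1.89 (-3.36 to -0.62) on 7 and 22 UMIs. Tigit in NK cells for that pair, at -1.31 (-2.25 to -0.30), was left out too. The share of all genes past 1.5-fold, with no limit on an interval, ran from 1.93% to 29.9%. Lower values were as follows. Tigit in CD4 T cells was 77.0 CPM with 2FF and 132 CPM in control, a log2 ratio of -0.78 (-1.10 to -0.45), beside 17.2% of genes, and Cd160 there was 18 CPM with the 2FF combination and 31.2 CPM with 2FF, a log2 ratio of -0.80 (-1.33 to -0.27), beside 4.22% of genes. With the antibody alone against control, the log2 ratio in NK cells was -1.80 (-2.71 to -0.80) for Tigit and -1.39 (-2.09 to -0.64) for Ctla4, beside 29.9% of genes, and in dendritic cells -1.17 (-1.72 to -0.64) for Ctla4, beside 12.4% of genes. For the 2FF combination against 2FF, NK cells had -0.65 (-0.93 to -0.38) for Ctla4 and -1.04 (-1.84 to -0.25) for Cd160, beside 8.39% of genes. NK cells of the control library numbered 19, so ratios to it were imprecise.

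The ligands and shared partners of the members had no single class in common. Of 15 such genes, 8 had their highest median in dendritic cells, 13 passed the filter on low counts (Fgl1 and Nectin3 did not), and 9 were higher and 4 lower in dendritic than in CD8 T cells. In that contrast 73.2% of all genes passed in either direction. The list's median log2 fold was 2.34, against -0.052 over all genes tested. The MHC class II genes H2-Ab1 and H2-Aa, of the ligand of LAG-3, had medians of 5070 and 4846 CPM in dendritic cells and 1457 and 1856 CPM in B cells. Both belong to the MHC class II genes that the dendritic gate required, at least 5 UMIs together, so their level in dendritic cells was in part set by the gate. The counts of 8 and 9 genes and the median log2 fold of 2.34 include them. Cd86, a CTLA-4 ligand, had medians of 807 CPM in dendritic and 607 CPM in B cells, and H2-Q7, a class I gene whose reads may be shared with near-identical relatives, was highest in Treg cells (806 CPM). Lgals9, which encodes the TIM-3 ligand galectin-9, was highest in NK cells (median 88.9 CPM) and was lower in dendritic cells (median 25.4 CPM) than in each of the 5 other classes by the edgeR test. Tnfrsf14, of the ligand of BTLA and CD160, had a median of 4.69 CPM in dendritic cells. It was higher there than in CD8 T (edgeR adjusted p = 0.0424), NK (0.000226) and B cells (0.0195). Against CD4 T (edgeR adjusted p = 0.0681) and Treg cells (0.284) it did not pass the test. Between CD8 and CD4 T cells 0 of the 13 passed the edgeR test, beside 23.1% of all genes.

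Of 10 competing or companion receptors, 3 were higher and 3 lower in CD8 than in CD4 T cells, beside 23.1% of all genes in either direction. Their median log2 fold was -0.16 against 0.01 over all genes. Icos, a costimulatory receptor, was highest in Treg cells (772 CPM), Cd226, the activating counterpart of TIGIT, in CD8 T cells (653 CPM), and Cd28 (601 CPM) and Pdcd1, which encodes PD-1 (302 CPM), in CD4 T cells. Cd226 was higher in CD8 than in CD4 T cells by a log2 fold of 1.01 ± 0.13 (SE, edgeR adjusted p = 2.4e-07) and Pdcd1 lower by -0.50 ± 0.11 (SE, adjusted p = 0.000666). In Treg against CD4 T cells 2 of the 10 were higher and 6 lower, beside 25.9% of all genes in either direction. Pdcd1 was lower there by a log2 fold of -1.61 ± 0.12 (SE, edgeR adjusted p = 2.3e-12).

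Of 10 regulators of exhaustion and effector fate, 1 was higher and 4 lower in CD8 than in CD4 T cells. In Treg against CD4 T cells 0 were higher and 6 lower. The shares of all genes that passed in either direction were 23.1% and 25.9%. The median log2 folds were -0.34 and -0.75 against 0.01 and -0.0075 over all genes. Tox, a factor of T cell exhaustion, had a median of 2741 CPM in CD4 T and 1360 CPM in CD8 T cells (log2 fold of CD8 over CD4 T cells -0.96 ± 0.19, SE, edgeR adjusted p = 0.000201). Id2 was highest in NK cells (1026 CPM), Nr4a2 in CD8 T cells (427 CPM) and Batf in CD4 T cells (244 CPM).

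The genes whose level over the 36 sums ran most like each member were ranked by Pearson r of log2(CPM + 5) among 15011 genes, as a description, since the sums share libraries and classes. They were Rnf19a (0.959), Lgalsl (0.947) and Gm39323 (0.941) for Lag3, Pde4d (0.970), S100a4 (0.968) and Trerf1 (0.959) for Havcr2, and Cysltr2 (0.977), Gata3 (0.976) and Ctla2a (0.974) for Tigit. For Ctla4 they were Itgav (0.973), Xlr4a (0.970) and Gm13684 (0.969), for Cd160 Wscd2 (0.953), Gm29243 (0.925) and Crtam (0.920), and for Btla Lrrk2 (0.957), Mtss1 (0.936) and Cybb (0.925). No member was among the 3 genes most like another.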

How the data were processed

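The authors processed 10x Genomics 3′ v3.1 libraries with Cell Ranger 7.0.0, per the file headers and the study's methods (the labels' tool list gives 3.1.0), against mm10, and deposited raw UMI counts per gene and barcode. Whether intronic reads were counted is not given in the sources used here. Cells with at least 250 genes and at most 5% mitochondrial UMIs were kept, as in the study. They were assigned to a class by exclusive gates of at least 2 UMIs of lineage genes (at least 5 of MHC class II genes for dendritic cells). Among T cells, the CD8 T, CD4 T and Treg gates needed only 1 UMI of Cd8a or Cd8b1, of Cd4 or of Foxp3. The stricter gates named below kept this limit of 1 UMI. Cells in more than 1 gate were left out, and no doublet caller was run. The 6 members, the gates and the gene lists were chosen with earlier results of these data known. UMIs were summed per class and library. The 15 pairs of classes were tested with edgeR 4.0.16 (R 4.3.3) by glmQLFTest with library as a block and adjusted p under 0.05. The SE printed with a log2 fold is its absolute value divided by the square root of the quasi-likelihood F statistic. It comes from the fit over all classes and is not the SE of 6 values, 1 per mouse. The scripts were tested on simulated data. The same mouse gave all classes of a library, and 1 mouse stands behind each treatment, so the n of class contrasts is 6 mice under 6 treatments. Treatment ratios used log2(CPM + 5), for genes whose UMIs in the pair of libraries reached 50, called past 1.5-fold; intervals for members are exact conditional binomial intervals of log2 CPM ratios, levels have exact Poisson and shares Clopper-Pearson intervals, all at 95% and for counting error only. Of each list, up to 4 genes with the highest median level in their highest class were named. For each member, the 3 genes with the highest r were named. Lgals9 and Tnfrsf14, genes of ligands of the members, were named outside this rule. Coordinates are from GENCODE M21 (GRCm38) and promoters from RefSeq (GRCm38.p6). Alternatives were stricter gates, a 10% mitochondrial limit, leaving out the 5% of cells with the most UMIs, other size factors, DESeq2 1.42.0, no filter, no library term, each library left out, a pseudocount of 1, centred ratios, and thinning to 2000 UMIs. The split of CD4 T cells by Il2ra or Ikzf2 was added after seeing the data.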

Additional observations from a re-analysis of the deposited data

Results flagged for a closer look

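Havcr2 in neutrophil-gated cells, a class outside the treatment comparisons above, was 102 CPM (95% Poisson interval 74.6 to 137, 45 UMIs in 100 cells) in the 2DG plus anti-PD-L1 library, above the control library at 61.1 CPM (57.2 to 65.2). The other 4 libraries had 25.1 to 69.0 CPM. The 45 UMIs lay in 14 of the 100 cells, and the Poisson interval treats UMIs of the same cell as independent. The share of cells with a Havcr2 UMI was 14% (95% interval 7.87% to 22.4%) in 2DG plus anti-PD-L1 and 13.9% (12.5% to 15.5%) in control. Neutrophils had a median depth of 2916 UMIs in 2DG plus anti-PD-L1 and 4469 UMIs in control. The higher CPM was not tested against spread between mice.

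Cd160 went opposite ways in 2 classes between the 2DG plus anti-PD-L1 and 2DG libraries: the log2 ratio was -0.85 (95% interval -1.48 to -0.26) in CD4 T cells and 0.77 (0.074 to 1.5) in NK cells. The difference between the classes was not tested, and it rested on 31 and 99 UMIs in CD4 T cells and 60 and 25 UMIs in NK cells.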

How the results depend on the processing

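Between treatments, no pairing could be used, since each has 1 library. No paired analysis was possible because of this for treatments only: the contrasts between classes were paired by mouse, with the library as a block. Of 1170 member contrasts between classes under the alternatives, 1132 kept their direction and their side of the threshold, 22 lost the call and 16 changed sign; 0 of the 16 had passed the edgeR test to begin with. The 16 lay in 7 contrasts. Lag3 in CD8 T over CD4 T cells had a log2 fold of -0.01 with RLE size factors, -0.022 in DESeq2, and -0.087 to 0.065 when 1 library was left out (below 0 without 2FF). Lag3 in DC over NK cells had 0.17 with strict gates, 0.20 without the cells with the most UMIs, and -0.19 to 0.11 without 1 library (above 0 without 2FF or without the 2FF combination). Tigit in DC over B cells had 0.39, 0.094 and -0.21 to 0.26 in the same order (above 0 without 2FF or without the 2DG combination). Cd160 had -0.029 in Treg over B cells and 0.28 in DC over Treg cells with strict gates, and without 1 library -0.66 to 0.015 in DC over Treg cells (above 0 without the 2FF combination) and -0.21 to 0.80 in DC over B cells (below 0 without 2FF). Havcr2 in DC over CD4 T cells had -0.11 to 0.05 without 1 library (above 0 without the 2DG combination). The cause of these changes was not tested. With no library term, 2 members passed between CD8 and CD4 T cells instead of 4. The calls lost were those of Ctla4 and Havcr2. Leaving out each library moved no count of genes called by more than 1.5 times.

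The median of Havcr2 in CD4 T cells without Il2ra or Ikzf2 UMIs, a split chosen after seeing the data, was 140 CPM, and that of Ctla4 in B cells without the deepest cells was 30.6 CPM. A pseudocount of 1 CPM raised the genes past 1.5-fold in CD8 T cells to 1782, 2449 and 2228 for 2DG, 2FF and anti-PD-L1 over control, to 1076 and 687 for the 2DG and 2FF combinations against the antibody alone, and to 979 and 569 against the drug alone, since a smaller pseudocount shrinks low genes less. Thinning to 2000 UMIs lowered the median share of CD8 T cells with a UMI to 33.9% for Lag3, 31.8% for Havcr2, 13.4% for Tigit, 55.8% for Ctla4, 14.9% for Cd160 and 3.44% for Btla. With 19 NK and 121 CD8 T cells in the control library, ratios to control are imprecise, and no treatment difference could be set against spread between mice.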
